A study of Mus musculus with 25 samples.

Results

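Grem1, Fst, Bmp4, Bmp5, Gdf6, Gdf10, Inhba, Bambi, Smad6 and Id1 are 10 genes of the BMP and activin pathways, taken by name from the 47729 genes of a bulk RNA-seq count table of mouse lung mesenchymal cells and followed in matched single-cell RNA-seq. All 10 were among the 15773 genes with enough counts to be tested in bulk. The cells were Lin- cells, which are lung cells that a flow cytometry sort found negative for CD45 (leukocytes), CD31 (endothelium) and CD326 (epithelium). Every animal, naive mice included, was a Col1a1-Cre-ERT2;Fas fl/fl mouse, in which Cre is driven by the Col1a1 promoter and acts only after tamoxifen, so deletion of the death receptor gene Fas was directed to collagen-expressing cells. The groups were naive mice (labelled Control), which received no bleomycin, and mice at 3 or 6 weeks after a single intratracheal instillation of bleomycin, a drug that injures the lung and leads to fibrosis. At each time, mice called Fas+/+ had received corn oil and mice called Fas-/- had received tamoxifen while fibrosis developed, so the deletion and tamoxifen cannot be told apart. Bulk RNA-seq holds 5 groups of 4 libraries, and single-cell RNA-seq holds 5 libraries, 1 for each group, each made from the pooled cells of 4 mice. The study's methods count individual animals as replicates, the labels do not tie a bulk library to an animal, and p-values measure the spread between these libraries.

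BMPs and activins are secreted dimers of the TGF-β superfamily that bring together type I and type II receptor kinases, and the receptors then phosphorylate Smad proteins that enter the nucleus. Most BMPs and some GDFs act through Smad1, Smad5 and Smad9, whereas activins act through Smad2 and Smad3. Secreted antagonists such as gremlin-1 and follistatin bind the ligands before they reach a receptor, Bambi is a receptor-like protein without a kinase, and Smad6 blocks the pathway inside the cell. In the lung these pathways take part in branching during development and in the behavior of fibroblasts after injury.

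Some libraries stood apart, and results that rest on them are given with and without them. The bulk libraries held between 11819700 and 25189096 counts each. The summed level of 8 blood endothelial markers, which the sort should have removed, was 144 to 395 CPM (the count divided by the library total and scaled to 1e6) in naive libraries but reached 8072 CPM in week 3 Fas+/+ replicate 1, 7311 CPM in week 3 Fas-/- replicate 4, 1556 CPM in week 6 Fas+/+ replicate 2 and 2398 CPM in week 6 Fas-/- replicate 2. These 4 libraries, each the highest of its group, are called endothelial-rich below. The other 3 libraries of each group held 2046 to 2782 CPM (week 3 Fas+/+), 565 to 964 CPM (week 3 Fas-/-), 419 to 995 CPM (week 6 Fas+/+) and 95.1 to 394 CPM (week 6 Fas-/-), so the other week 3 Fas+/+ libraries were above the endothelial-rich one of week 6 Fas+/+ mice, and leaving out the 4 does not make the groups equal in these markers. The summed level of 11 profibrotic fibroblast markers ran from 23236 to 36099 CPM in naive mice, from 19523 to 86809 CPM among the week 3 Fas+/+ libraries and from 33296 to 76452 CPM among the week 3 Fas-/- libraries, from 24831 to 32786 CPM among the week 6 Fas+/+ and from 32629 to 49938 CPM among the week 6 Fas-/- libraries. Fas, counted over the whole gene, was 22.1 ± 1.25 CPM in naive mice, 41.0 ± 11.3 in Fas+/+ and 44.2 ± 14.2 in Fas-/- mice at week 3, and 31.4 ± 6.24 and 40.4 ± 4.59 at week 6 (SD, n = 4), and the count does not separate the floxed exon. Other markers of cells outside the mesenchyme differed too. Summed erythroid markers were 2979 to 9589 CPM in naive libraries and at most 235 CPM in injured ones, reached at week 6 in Fas+/+ mice. Summed epithelial markers were 24.9 to 110 CPM in naive, 479 to 1411 CPM in week 6 Fas+/+ and 113 to 359 CPM in week 6 Fas-/- libraries. In bulk libraries, fewer cells of a type and less RNA per cell cannot be told apart.

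Before any response is considered, the genes differed widely in level. Per kilobase of exon, Bmp4 was highest in naive mice at 67.5 ± 10.6 CPM per kb (SD, n = 4), above Bmp5 at 46.2 ± 4.00. The ranges of Bmp5, Id1 (34.8 ± 9.86) and Gdf10 (29.4 ± 4.91) overlapped from one gene to the next. Smad6 (11.3 ± 2.44), Bambi (6.07 ± 0.422) and Fst (4.12 ± 0.696) followed, each with no overlap with the next. Gdf6 (1.11 ± 0.327) and Inhba (1.00 ± 0.115) overlapped, and Grem1 was lowest at 0.260 ± 0.168 CPM per kb. Among the 10 genes, the uninjured Lin- population was therefore rich in transcripts of the ligands Bmp4 and Bmp5. It was poor in those of Gdf6, Inhba and the secreted antagonist Grem1. Antagonists outside the 10 genes were not ranked here. In Fas+/+ mice at week 3, Grem1 stood at 21 ± 14.7 CPM per kb and its range overlapped that of Gdf10, at 20.7 ± 6.28, whereas Bmp4 was 39.0 ± 4.82.

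Grem1 encodes gremlin-1, a secreted protein that binds BMP2, BMP4 and BMP7. It lies on chromosome 2 (GRCm38 chr2:113746164-113758646, minus strand, ENSMUSG00000074934). In the 4 naive libraries its level was 0.258, 1.52, 0.764 and 1.77 CPM, which is 6, 38, 16 and 41 reads. In Fas+/+ mice at week 3 it was 5.15, 127, 139 and 76.7 CPM, and in Fas-/- mice 90.7, 117, 89.9 and 19.1 CPM. All 8 libraries of week 3 were above all naive libraries, and the lowest of each group was its endothelial-rich library. At week 6, Fas+/+ libraries held 3.03, 4.79, 3.52 and 16 CPM and Fas-/- libraries 45.1, 22.9, 19.4 and 21.5 CPM. Every Fas-/- library of week 6 was above every Fas+/+ library of that week.

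By edgeR's quasi-likelihood test with Benjamini-Hochberg adjustment, which gives every adjusted p below, Grem1 rose by 6.31 on the log2 scale in Fas+/+ mice at week 3 (SE 0.943, adjusted p = 7.1e-05) and by 6.18 in Fas-/- mice (SE 0.939, adjusted p = 1.6e-04). At week 6 the difference from naive mice was 4.64 in Fas-/- mice (SE 0.902, adjusted p = 0.00531) and 2.64 in Fas+/+ mice (SE 0.893, adjusted p = 0.0999). The latter passed the threshold by DESeq2 (adjusted p = 0.0170) and without the 4 endothelial-rich libraries. Between week 3 and week 6, Grem1 fell 12.8-fold in Fas+/+ mice (adjusted p = 0.00328), and in Fas-/- mice the difference was 2.91-fold with an adjusted p of 0.189. All comparisons with naive mice share the same 4 naive libraries.

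Inhba encodes the βA subunit whose dimer is activin A, and Fst encodes follistatin, which binds activins and neutralizes them. Inhba lies at GRCm38 chr13:16011851-16031621 (plus strand, ENSMUSG00000041324) and Fst at chr13:114452290-114458951 (minus strand, ENSMUSG00000021765). Inhba was 6.59, 7.35, 5.68 and 5.97 CPM in naive mice and 4.66, 56.8, 75.8 and 59.3 CPM in Fas+/+ mice at week 3. Fas-/- libraries of week 3 held 32.5, 43.0, 34.7 and 8.87 CPM of Inhba. Apart from the endothelial-rich replicate 1 of Fas+/+ mice, every week 3 library was above every naive library. At week 6 Inhba was 6.98, 7.02, 6.89 and 10.2 CPM in Fas+/+ mice and 11.9, 9.22, 8.18 and 12.5 CPM in Fas-/- mice. The Fas+/+ range of week 6 overlapped the naive range, and the Fas-/- range lay just above it.

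Fst was also highest at week 3. Its levels were 16.2, 19.9, 16.5 and 22.9 CPM in naive mice, 16, 112, 160.2 and 121 CPM in Fas+/+ mice at week 3, and 98.7, 133, 94.3 and 22.1 CPM in Fas-/- mice at week 3. At week 6 they were 14.2, 17.2, 15 and 23.1 CPM in Fas+/+ mice and 28.1, 25.1, 19.4 and 25.8 CPM in Fas-/- mice. The other 6 libraries of week 3 were above all naive libraries, while of the endothelial-rich ones that of Fas-/- mice lay within the naive range and that of Fas+/+ mice just below it. Inhba rose 7.65-fold in Fas+/+ mice at week 3 (log2 2.93, SE 0.561, adjusted p = 5.95e-04) and by 2.22 on the log2 scale in Fas-/- mice (adjusted p = 0.00574). Fst rose 5.40-fold (log2 2.43, SE 0.515, adjusted p = 0.00130) and by 2.2 on the log2 scale (adjusted p = 0.00379). By week 6 both had fallen in Fas+/+ mice, Inhba 6.31-fold (adjusted p = 0.00253) and Fst 5.87-fold (adjusted p = 0.00213). Fst fell in Fas-/- mice by 1.82 on the log2 scale (adjusted p = 0.0330), a call that was lost when any library of the comparison other than week 3 replicate 4 was left out, and Inhba differed by -1.51 (adjusted p = 0.0827). Across the 20 libraries, log2 CPM of Fst and Inhba had a Pearson r of 0.98, given as a description because libraries share their groups and their cell makeup.

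**Figure D1:**
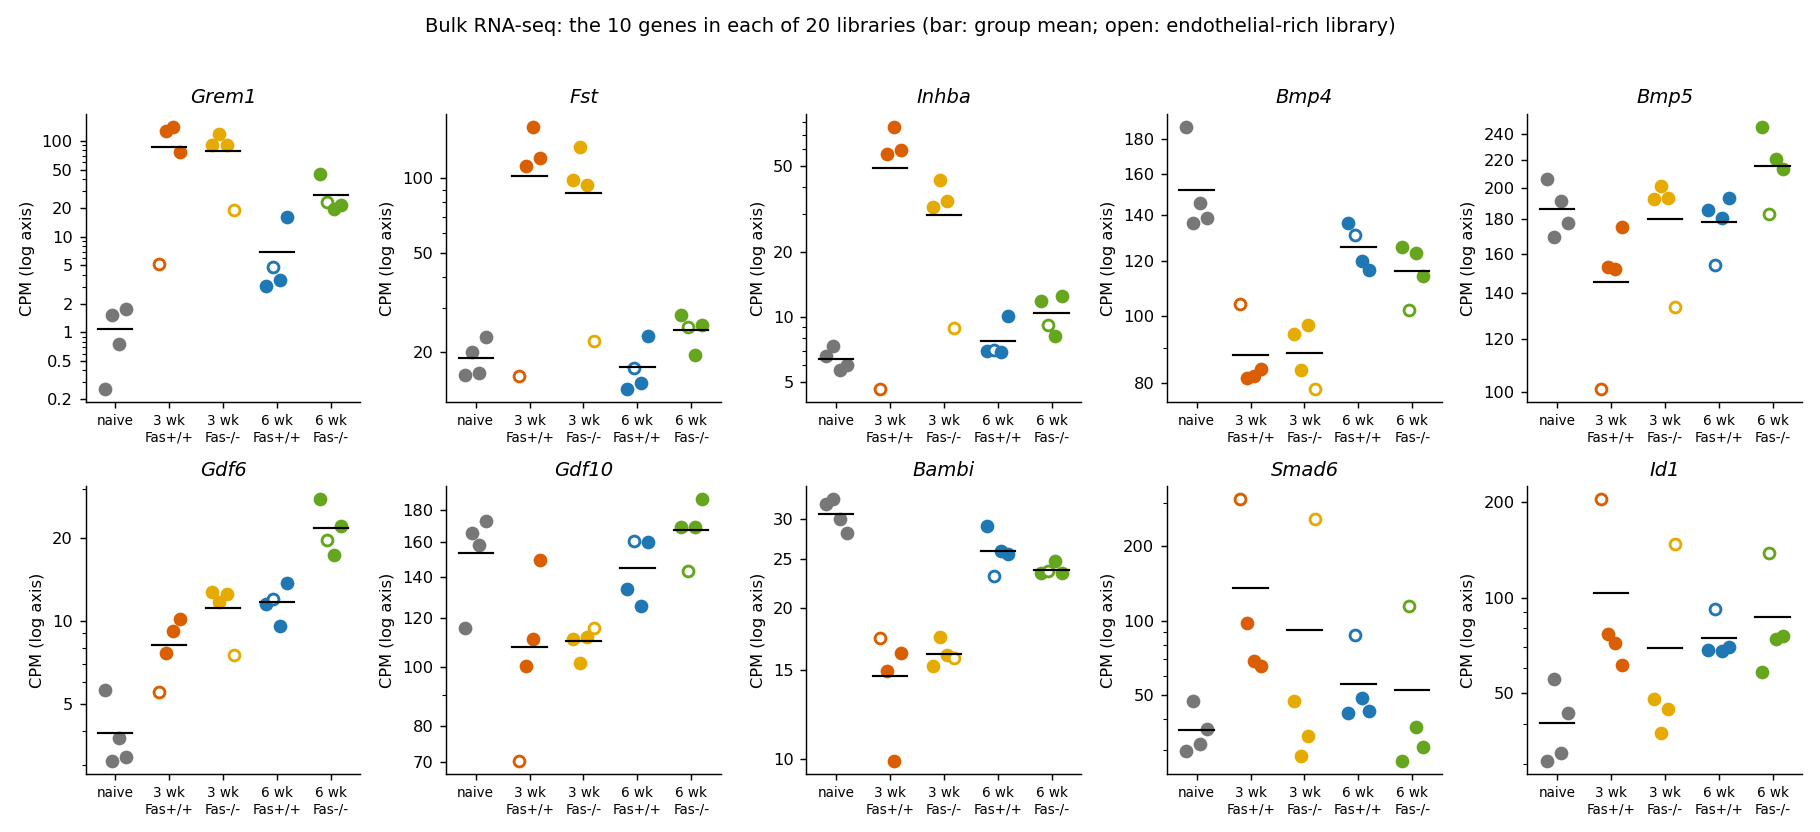
Level of each of the 10 genes in each of the 20 bulk libraries, in CPM on a log axis, by group. Points are libraries, bars are group means and open points are the 4 endothelial-rich libraries; Grem1 at week 3 runs from 5.15 to 139 CPM against 0.258 to 1.77 CPM in naive mice, and the open points are the lowest Grem1, Fst and Inhba libraries and the highest Smad6 and Id1 libraries of their week 3 groups.

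The sequences just upstream of Grem1 and Inhba, the antagonist and the ligand that rose most, and of Bmp4, a ligand that fell, are shown to place these genes in the genome. Each is the 250 bases before the RefSeq transcription start (build GRCm38.p6), written 5′ to 3′ in the direction of the gene, with capitals marking matches to 5 motifs searched on both strands. These were GGCGCC (a GC-rich motif bound by BMP Smads), CAGAC (which holds the core of the Smad-binding element), TGANTCA (AP-1), TATAAA (the TATA box) and CCAAT. None of the matches printed overlaps another.
Grem1, chr2:113758649-113758898, minus strand: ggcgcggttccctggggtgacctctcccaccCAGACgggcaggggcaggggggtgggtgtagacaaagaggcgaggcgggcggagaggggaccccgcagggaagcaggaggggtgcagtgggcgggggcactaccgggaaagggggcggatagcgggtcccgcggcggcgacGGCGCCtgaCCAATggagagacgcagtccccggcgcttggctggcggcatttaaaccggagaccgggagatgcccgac
Inhba, chr13:16011601-16011850, plus strand: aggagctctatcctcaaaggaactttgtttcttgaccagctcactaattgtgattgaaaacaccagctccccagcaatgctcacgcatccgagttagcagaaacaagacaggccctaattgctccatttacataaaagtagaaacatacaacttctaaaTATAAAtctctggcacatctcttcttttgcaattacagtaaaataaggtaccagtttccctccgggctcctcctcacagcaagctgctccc
Bmp4, chr14:46390670-46390919, minus strand: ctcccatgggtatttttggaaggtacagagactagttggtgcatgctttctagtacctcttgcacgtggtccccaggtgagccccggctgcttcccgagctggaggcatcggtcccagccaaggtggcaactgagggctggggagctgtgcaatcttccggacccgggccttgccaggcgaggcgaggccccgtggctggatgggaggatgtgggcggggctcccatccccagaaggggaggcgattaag
The Grem1 window held GGCGCC at 78 to 73 bases, CAGAC at 219 to 215 bases and CCAAT at 69 to 65 bases before the start. The Inhba window held TATAAA at 91 to 86 bases before the start, and the Bmp4 window held none of the 5. Among the 32851 windows of all genes, GGCGCC was in 9.59%, CAGAC in 42.2%, TGANTCA in 6.75%, TATAAA in 12.4% and CCAAT in 33.9%. The Grem1 window was 72% G and C with 24 CpG dinucleotides and that of Bmp4 63.2% with 11, whereas that of Inhba was 43.2% with 3, and the median over all windows was 52.4% with 6. Windows were taken for 6 of the 10 genes. None was found for Fst, Gdf6 and Id1, and none was sought for Bambi. The matches describe letters and not sites in use.

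Bmp4 and Bambi were lower at week 3 in both groups of injured mice, with no overlap with naive mice. Bmp4, a BMP ligand (chr14:46383520-46390669, minus strand, ENSMUSG00000021835), was 187, 136, 146 and 139 CPM in naive mice. At week 3 it was 104, 81.4, 81.8 and 83.7 CPM in Fas+/+ mice and 94.1, 83.6, 97.0 and 78.5 CPM in Fas-/- mice. At week 6 it was 136, 131, 120.1 and 116 CPM in Fas+/+ mice and 126, 102, 123 and 114 CPM in Fas-/- mice. Every week 3 library was below every naive library, while week 6 Fas+/+ libraries reached the lower edge of the naive range. Bmp4 fell by 0.79 on the log2 scale (1.73-fold, SE 0.110, adjusted p = 3.97e-05) in Fas+/+ mice and by 0.78 (adjusted p = 8.2e-05) in Fas-/- mice. At week 6 it was 1.31-fold lower in Fas-/- mice (log2 -0.39, adjusted p = 0.0428), a call lost without naive replicate 1, 3 or 4 or week 6 replicate 2 or 4, and the log2 difference in Fas+/+ mice was -0.27 (adjusted p = 0.176). From week 3 to week 6 Bmp4 rose by 0.52 in Fas+/+ mice (adjusted p = 0.00271) and by 0.40 in Fas-/- mice (adjusted p = 0.0332), the latter lost without week 3 replicate 2 or 4 or week 6 replicate 1, 3 or 4.

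Bambi (chr18:3507923-3516404, plus strand, ENSMUSG00000024232), the pseudoreceptor that dampens BMP and activin signaling, was 32.1, 32.8, 30 and 28.1 CPM in naive mice. At week 3 it was 17.4, 15, 9.93 and 16.2 CPM in Fas+/+ mice and 15.3, 17.5, 16.1 and 15.8 CPM in Fas-/- mice. The endothelial-rich libraries were not apart from the others of their group. At week 6 Bambi was 29.1, 23.1, 25.9 and 25.6 CPM in Fas+/+ mice and 23.4, 23.6, 24.7 and 23.4 CPM in Fas-/- mice, between the week 3 and the naive levels apart from 1 Fas+/+ library. It fell 2.09-fold in Fas+/+ mice at week 3 (log2 -1.07, SE 0.121, adjusted p = 6.03e-06) and by 0.93 on the log2 scale in Fas-/- mice (adjusted p = 4.3e-05). It rose by 0.82 from week 3 to week 6 in Fas+/+ mice (adjusted p = 2.66e-04) and by 0.55 in Fas-/- mice (adjusted p = 0.0106). At week 6 the differences from naive mice were -0.25 (adjusted p = 0.262) in Fas+/+ mice and -0.37 (adjusted p = 0.0744) in Fas-/- mice. The difference in Fas-/- mice passed the threshold by DESeq2 (adjusted p = 0.0137). It also passed in edgeR with the compared groups alone (adjusted p = 0.00963) and without the 4 endothelial-rich libraries (adjusted p = 0.0495).

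Gdf6 went the other way from Bmp4 at week 3. Gdf6 (chr4:9844372-9862345, plus strand, ENSMUSG00000051279), a BMP-type ligand known from joint and eye development, was 5.60, 3.11, 3.77 and 3.20 CPM in naive mice. It was 5.54, 7.65, 9.22 and 10.2 CPM in Fas+/+ mice and 12.7, 11.7, 12.6 and 7.49 CPM in Fas-/- mice at week 3. At week 6 it was 11.5, 12.0, 9.57 and 13.7 CPM in Fas+/+ mice and 27.5, 19.6, 17.3 and 22.1 CPM in Fas-/- mice. Gdf6 was thus highest in the week 6 Fas-/- libraries, all 4 of which were above all libraries of the other groups. It rose 2.07-fold in Fas+/+ mice at week 3 (adjusted p = 0.00159), by 1.5 on the log2 scale in Fas-/- mice at week 3 (adjusted p = 1.55e-04), 2.98-fold in Fas+/+ mice at week 6 (adjusted p = 3.95e-04) and 5.52-fold in Fas-/- mice at week 6 (log2 2.46, adjusted p = 6.9e-06). From week 3 to week 6 it rose further in Fas-/- mice, by 0.96 on the log2 scale (adjusted p = 0.0124).

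Gdf10 and Bmp5 differed by less. Gdf10 (chr14:33923587-33937983, plus strand, ENSMUSG00000021943), which encodes a relative of BMP3, was 116, 165, 158 and 173 CPM in naive mice, 70.4, 100.2, 111 and 149.5 CPM in Fas+/+ mice and 111, 101, 112 and 116 CPM in Fas-/- mice at week 3. It was 1.42-fold lower in Fas+/+ mice at week 3 (log2 -0.51, adjusted p = 0.0237) and lower by 0.48 on the log2 scale in Fas-/- mice (log2 -0.48, adjusted p = 0.0399). Neither call was firm, since it was lost without any of 4 libraries in Fas+/+ mice (naive replicates 2 and 4, week 3 replicates 1 and 2) and without any library other than naive replicate 1 in Fas-/- mice. At week 6 Gdf10 ran from 126 to 160.4 CPM in Fas+/+ mice and from 144 to 187 CPM in Fas-/- mice. Bmp5 (chr9:75775364-75900310, plus strand, ENSMUSG00000032179), a BMP ligand, was 206, 169, 191 and 178 CPM in naive mice, 101, 153, 152 and 175 CPM in week 3 Fas+/+ mice, and 192, 201, 193 and 133 CPM in week 3 Fas-/- mice. The endothelial-rich library was the lowest Bmp5 library of each of the 4 injured groups, at 154 CPM for week 6 Fas+/+ and 183 CPM for week 6 Fas-/- mice. The log2 difference of Bmp5 from naive mice at week 3 was -0.36 in Fas+/+ mice (adjusted p = 0.0625), with -0.05 for Fas-/- mice (adjusted p = 0.836).

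Smad6, the inhibitory Smad that BMP signaling induces, and Id1, an inhibitor of DNA binding that is a direct BMP target, varied with 1 library in each injured group. Smad6 (chr9:63953076-64022059, minus strand, ENSMUSG00000036867) was 29.7, 47.2, 31.8 and 36.4 CPM in naive mice. At week 3 it was 309, 97.4, 68.5 and 65.4 CPM in Fas+/+ mice and 47.5, 28.5, 34.3 and 257 CPM in Fas-/- mice. At week 6 it was 42.5, 87.4, 48.8 and 43.2 CPM in Fas+/+ mice and 27.2, 115, 37.3 and 30.9 CPM in Fas-/- mice. The highest library of each injured group was the endothelial-rich one, and over the 20 libraries log2 CPM of Smad6 had an r of 0.90 with the blood endothelial markers. Id1 (chr2:152736251-152737410, plus strand, ENSMUSG00000042745) was 30.6, 55.4, 32.4 and 43.2 CPM in naive mice, 204, 76.9, 71.8 and 61.2 CPM in Fas+/+ mice and 47.8, 37.4, 44.5 and 148 CPM in Fas-/- mice at week 3. At week 6 Id1 was 68.1, 91.9, 68.0 and 70 CPM in Fas+/+ mice and 58.4, 138, 74.1 and 75.8 CPM in Fas-/- mice. Unlike Smad6, it lay above the naive range in all 8 week 6 libraries, and its r with the endothelial markers was 0.76.

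Smad6 rose 3.73-fold in Fas+/+ mice at week 3 (log2 1.90, SE 0.680, adjusted p = 0.0327) and Id1 2.56-fold (log2 1.36, SE 0.435, adjusted p = 0.0185). Without week 3 Fas+/+ replicate 1 the differences were 1.08 (adjusted p = 0.177) and 0.79 (adjusted p = 0.110) on the log2 scale. The Smad6 call was also lost without naive replicate 1, 3 or 4, and the Id1 call without naive replicate 1 or 3. With all 4 endothelial-rich libraries left out, Smad6 was higher by 1.08 (adjusted p = 1.6e-04) and Id1 by 0.79 (adjusted p = 9.35e-04) in Fas+/+ mice at week 3, whereas in Fas-/- mice the differences were 0.0042 and 0.08. The libraries kept in that fit still differed in blood endothelial markers, with 2046 to 2782 CPM in Fas+/+ and 565 to 964 CPM in Fas-/- mice at week 3 against 144 to 395 CPM in naive mice. In that fit Id1 was also higher at week 6, by 0.76 in Fas+/+ mice (adjusted p = 0.00813) and by 0.77 in Fas-/- mice (adjusted p = 0.00635). With all libraries, the differences in Fas-/- mice at week 3 were 1.34 for Smad6 (adjusted p = 0.135) and 0.78 for Id1 (adjusted p = 0.177). With the endothelial markers as a covariate, both turned in direction in Fas+/+ mice at week 3, to -1.03 for Smad6 and -0.44 for Id1. The mean log2 CPM of these markers was at most 5.03 in naive and at least 7.58 in week 3 Fas+/+ libraries. The covariate did not overlap between these groups, so that fit extrapolates and cannot separate endothelial RNA from injury. The part of endothelial RNA in these differences was not tested further.

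The 10 genes were chosen with earlier results of these data known, so counts and medians over the set are descriptions and not tests of the pathways. Counted over the set, 9 of the 10 genes were called in Fas+/+ mice at week 3, 6 higher and 3 lower, where 41.3% of all genes tested were called. In Fas-/- mice at week 3, 7 were called, 4 higher and 3 lower, against 32% of all genes. The count of 9 was 6 without Fas+/+ replicate 1, where 45.8% of all genes were called. At week 6 only Gdf6 was called in Fas+/+ mice, where 5.31% of all genes were called, and Grem1, Gdf6 and Bmp4 in Fas-/- mice, where 6.48% were. Groups did not overlap for 5, 6, 3 and 6 of the 10 genes in these comparisons, beside 32.2%, 31.1%, 16.6% and 16.1% of all genes. The median log2 difference over the 10 genes was 1.2, 1.06, 0.11 and 0.46, against medians of 0.01, 0.02, 0.0012 and 0.01 over all genes. Without the 4 endothelial-rich libraries, 10, 7, 3 and 7 of the 10 genes were called, against 50.4%, 39.0%, 9.62% and 11.7% of all genes. The 7 called in Fas-/- mice at week 6 were then Grem1, Bmp4, Bmp5, Gdf6, Inhba, Bambi and Id1, and the 3 in Fas+/+ mice were Grem1, Gdf6 and Id1.

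From week 3 to week 6, 5 of the 10 genes were called in Fas+/+ mice, Bmp4 and Bambi higher and Grem1, Fst and Inhba lower, where 22.9% of all genes were called. The Fas-/- mice had 5 calls as well, Bmp4, Gdf6, Gdf10 and Bambi higher and Fst lower, where 9.02% were called. In these mice 2 to 4 of the 10 were called with 1 library left out, where 3.54% to 9.07% of all genes were. Gdf10 rose by 0.61 there (adjusted p = 0.0348), which was lost without any library of the comparison other than week 6 replicate 2. Without the 4 endothelial-rich libraries the counts were 7 and 8, against 37% and 16.7% of all genes, and Grem1 fell by 1.79 and Inhba by 1.75 on the log2 scale in Fas-/- mice.

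**Figure D2:**
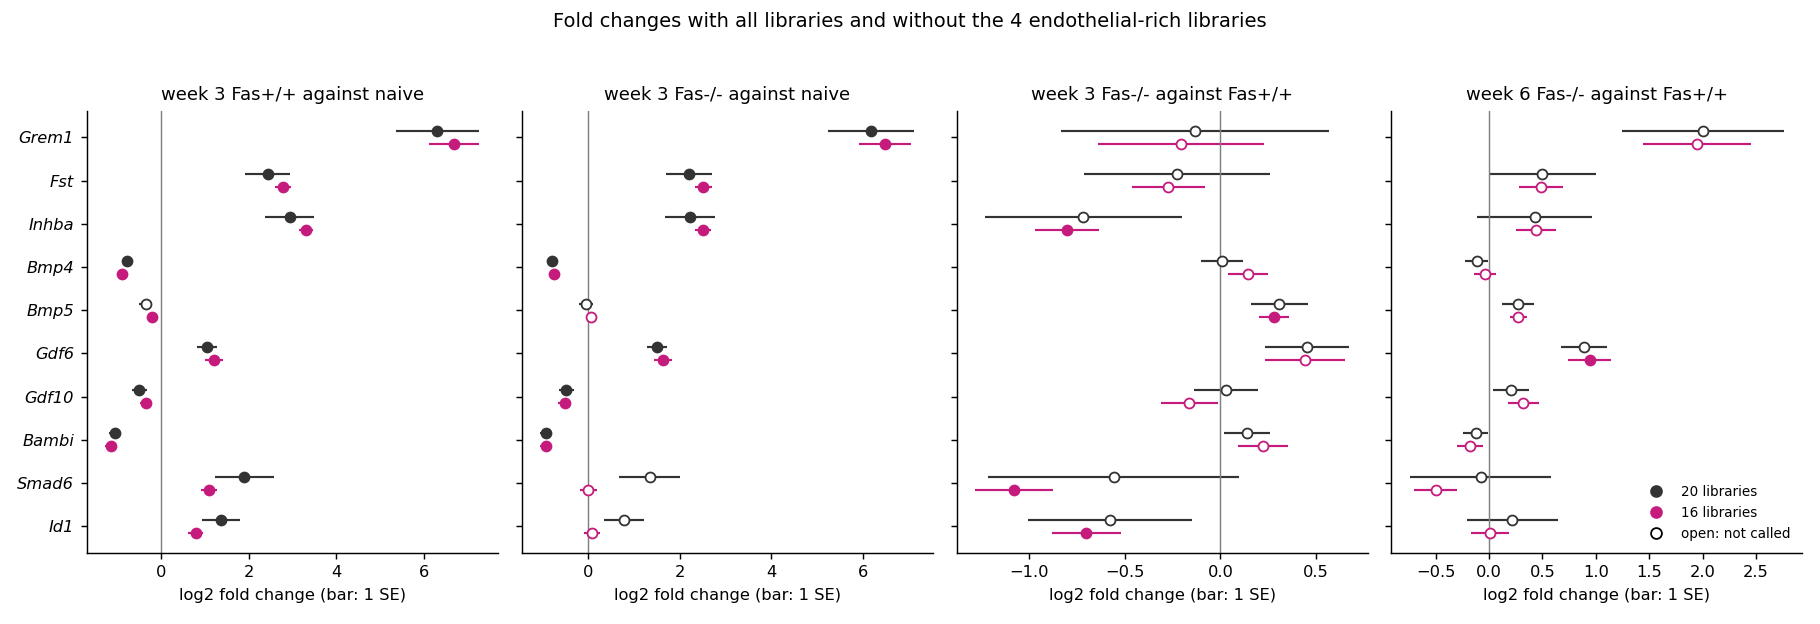
Log2 fold change of each gene (points, with bars of 1 SE) in 4 comparisons, from edgeR's quasi-likelihood fit with all 20 libraries (black) and with the 16 left without the endothelial-rich libraries (magenta). Filled points passed an adjusted p of 0.05; the Smad6 difference of Fas+/+ mice at week 3 goes from 1.90 to 1.08, and at week 3 between genotypes Inhba, Smad6, Id1 and Bmp5 are filled with 16 libraries only.

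The comparison of Fas-/- with Fas+/+ mice asks whether the genes differ once Fas deletion has been directed to collagen-expressing cells. Deletion was not complete, since the paper reports that some single cells of Fas-/- mice still expressed the deleted exon. At week 3 none of the 10 genes passed edgeR's threshold, where 0.171% of all genes were called, and none had an unadjusted p under 0.05, where 8.62% of all genes had. The 95% intervals given here are normal approximations, somewhat narrower than the quasi-likelihood test implies. Even so, they were wide for the genes that varied most: the log2 difference was -0.13 for Grem1 (95% interval -1.51 to 1.25). At week 6 none was called either, where 0.0507% of all genes were called, but 2 genes had an unadjusted p under 0.05 and did not overlap between groups. Of all genes, 8.07% had such a p and 6.81% did not overlap. Grem1 was higher in Fas-/- mice by 2.00 on the log2 scale, 4.01-fold (SE 0.758, 95% interval 0.52 to 3.49, unadjusted p = 0.0166, adjusted p = 0.440), in 4 of 4 libraries. Gdf6 was higher by 0.89, 1.85-fold (SE 0.216, 95% interval 0.46 to 1.31, adjusted p = 0.159), also in 4 of 4 libraries. The exact two-sided permutation test gave p = 0.0286 for each of these, the smallest it can give with 4 libraries against 4. Gdf6 passed the threshold by DESeq2 (adjusted p = 0.0141) and without the 4 endothelial-rich libraries (log2 0.94, adjusted p = 0.0433), and Grem1 did not (adjusted p = 0.324 and 0.0812). Of all genes, 0.951% and 0.738% were called in these 2 fits. For Fas+/+ mice at week 3 against naive mice, the permutation test gave p = 0.0286 for Grem1, Bmp4, Bambi, Smad6 and Id1. It gave 0.0571 for Bmp5, Gdf6 and Gdf10 and 0.143 for Fst and Inhba, whose groups overlapped. From week 3 to 6 in Fas+/+ mice it gave 0.0571 for Grem1, 0.0857 for Fst, 0.143 for Inhba and 0.0286 for Bmp4 and Bambi.

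Leaving out the 4 endothelial-rich libraries changed the week 3 comparison of genotypes more. Inhba was then lower in Fas-/- mice by 0.80 on the log2 scale (log2 -0.80, adjusted p = 0.00761), Smad6 by 1.08 (log2 -1.08, adjusted p = 0.00403) and Id1 by 0.70 (log2 -0.70, adjusted p = 0.0244), while Bmp5 was higher by 0.28 (adjusted p = 0.0376), where 8.13% of all genes were called. The blood endothelial markers were also lower in Fas-/- mice in the week 3 libraries kept, at 565 to 964 CPM against 2046 to 2782 CPM in Fas+/+ mice. Over the 20 libraries, r with these markers was 0.90 for Smad6, 0.76 for Id1, 0.26 for Inhba and -0.81 for Bmp5. The part of these markers in the differences of these genes was not tested. No group was left with fewer than 3 libraries. The difference of the genotype effects at weeks 6 and 3 passed the threshold for no gene of the 10 with all libraries, where 0.00634% of all genes were called, and no unadjusted p was under 0.05, where 7.67% of all genes had one. For Grem1 it was 2.13 on the log2 scale (edgeR's adjusted p = 0.659). Without the 4 libraries it passed for Inhba alone of the 10 (log2 1.24, SE 0.251, adjusted p = 0.0280), where 1.58% of all genes were called. With all libraries the Inhba value was 1.15 (SE 0.746, edgeR's adjusted p = 0.804). The week 3 libraries left out held the lowest Inhba level of their groups, so leaving them out narrowed the spread.

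Among the other genes of the pathways, more secreted antagonists were called lower than higher at week 3. Among 12 other ligands of the TGF-β superfamily with enough counts, 4 were higher and 5 lower in Fas+/+ mice at week 3. This list follows family membership and not the receptor that a ligand uses. The activin subunit gene Inhbb rose by 2.53 (35.6 ± 15.5 against 6.15 ± 1.97 CPM, adjusted p = 1.3e-05) and Gdf15, a stress-induced cytokine, by 1.22 (adjusted p = 2.1e-04), whereas Bmp3 fell by 1.47 (160 ± 46.9 against 442 ± 54.5 CPM, adjusted p = 6.3e-06). Of 16 other secreted antagonists, 1 was higher, 8 were lower and 7 were not called, where 19.2% of all genes were called lower. These included Twsg1, a modulator of BMP binding by chordin, which fell by 1.08 (319 ± 46.4 against 674 ± 32.2 CPM, adjusted p = 9.3e-07), and Chrdl1, a chordin-like antagonist, which fell by 1.57 (adjusted p = 1.8e-05). The antagonists' median log2 difference was -0.48 beside 0.01 over all genes. Of 14 receptors and co-receptors, 5 were higher and 3 lower, led by the type I activin receptor gene Acvr1b, higher by 1.03 (adjusted p = 1.0e-04), the BMP co-receptor gene Rgma, with a log2 difference of -0.92 (adjusted p = 2.2e-05), and Tgfbr3 (betaglycan), with -0.99 (adjusted p = 1.1e-04).

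Of 9 genes for Smads and their ligases, 3 were higher and 1 lower in Fas+/+ mice at week 3. Smurf1, a ubiquitin ligase that targets BMP Smads, rose by 0.52 (adjusted p = 9.7e-06), Smad1 by 0.55 (adjusted p = 4.6e-04) and Smad5 by 0.32 (adjusted p = 7.4e-04). Of 8 other BMP target genes, 3 were higher and 3 lower. Smad7 and Smad9 are in both of these lists and count once in the totals over all lists. The homeobox gene Msx1 rose by 2.53 (16.8 ± 2.26 against 2.90 ± 0.569 CPM, adjusted p = 2.7e-07) and Id3, a relative of Id1, by 0.69 (297 ± 27.5 against 184 ± 17.6 CPM, adjusted p = 9.0e-06), while Smad9, which is both a transducer and a target, fell by 0.90 (adjusted p = 0.00116). Targets of the pathway thus moved in both directions. Together, 35 of the 57 other pathway genes were called there, which is 61.4% beside 41.3% of all genes. The lists were also chosen with earlier results of these data known, so this share is a description.

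In Fas-/- mice at week 3, 30 of the 57 were called, against 32% of all genes. By list the counts higher and lower were 4 and 3 for ligands, 2 and 7 for antagonists, 2 and 4 for receptors, 2 and 1 for Smads and their ligases, and 2 and 4 for targets, where 14.8% of all genes were called lower. Twsg1 fell by 0.89, Chrdl1 by 1.14 and Bmp3 by 1.06, and Inhbb rose by 1.93, Msx1 by 2.07 and Id3 by 0.63. At week 6 fewer were called (6 in Fas+/+ and 8 in Fas-/- mice, against 5.31% and 6.48% of all genes). Id3 was higher by 0.62 and 0.78, Msx1 by 1.19 and 1.42, Inhbb by 1.32 and 1.52, and Gdf7, the closest relative of Gdf6, by 2.08 and 2.76 (2.88 ± 0.515 in Fas-/- against 0.418 ± 0.247 CPM in naive mice). Between weeks 3 and 6, 8 of the 16 antagonists rose in Fas+/+ mice and none fell, where 12% of all genes rose, led by Twsg1 (0.68), Nbl1 (0.63) and Chrdl1 (1.30). Over the same weeks 5 rose in Fas-/- mice, where 4.48% of all genes rose, among them Nbl1 (0.57) and Twsg1 (0.56). Between genotypes, 0 of the 57 were called by edgeR or DESeq2 at either week with all libraries, and 9 at week 3 and 4 at week 6 had an unadjusted p under 0.05 in edgeR, beside 8.62% and 8.07% of all genes.

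The genes whose log2 CPM was most like each of the 10 over the 20 libraries are given as a description. Those nearest Grem1 were Col24a1, Ctsc and Cthrc1, each with an r of 0.98, and Cthrc1 is one of the profibrotic markers. Those nearest Fst included Inhba and Rnf149, and those nearest Inhba included Rnf149 and Fst. Bmp4 had Slc22a17 (0.95), Rgma (0.95) and Lzts3 (0.94), and Gdf6 had Nnat (0.95), Gdf7 (0.91) and Ndrg1 (0.89). Bmp5 had Robo2 (0.96), Cdh11 (0.94) and Col27a1 (0.93), Gdf10 had Abat (0.91), Fcgrt (0.87) and Adamtsl1 (0.87), and Bambi had Letm2, Zfp185 (0.96) and Ndrg2 (0.95). Nearest Smad6 were Nipal3, Elovl5 and Tmem100 (0.98), and nearest Id1 Sh3bp4, F11r and Aqp1 (0.94). Within the set, Grem1 and Bmp4 had an r of -0.86, Bmp4 and Bambi 0.88, and Bmp5 and Smad6 -0.89. With the profibrotic markers, r was 0.95 for Grem1, 0.95 for Fst and 0.96 for Inhba, so these genes and the markers moved with the same libraries.

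Single cells placed each gene in a class of cells, in 12059 cells kept of 13900 barcodes. Each condition had 1 library, so no test between conditions was made, and intervals cover counting error only. The order of weeks differed between the data types. Over 12274 genes, the difference of the single-cell library labelled week 6 from that labelled week 3 had an r of -0.89 with the bulk difference of the same weeks in Fas+/+ mice, and -0.57 in Fas-/- mice. The single-cell libraries labelled week 6, set against naive, had an r of 0.90 and 0.81 with bulk week 3 set against naive, whereas those labelled week 3 had 0.67 and 0.61. The labels and the deposited names do not differ on the week, so each library is called by its label below, and no time course is read from single cells. The naive library held 603 cells and shared 250 of their barcodes (41.5%) with the library labelled week 3 Fas-/- and 249 (41.3%) with that labelled week 6 Fas-/-. It shared 14.6% and 19.7% with those labelled week 3 and week 6 Fas+/+. Other pairs of libraries without the naive one shared 3.19% to 9.85% of the barcodes of the smaller library. The source of the shared barcodes was not tested, which limits the single-cell values given for naive mice.

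Over the 5 libraries together, Grem1, Fst and Inhba UMIs lay mainly in profibrotic fibroblast-like cells. This class, 916 cells or 7.60% of all, was 1 cluster named from 11 markers that were left out of the clustering together with the 10 genes, and it held 93.4% of all Grem1 UMIs (unique molecular identifiers, 1 per captured RNA molecule), 69.2% of Fst and 68.5% of Inhba. For Fst and Inhba this share rested on the libraries labelled week 6. By library, in the order naive, week 3 Fas+/+, week 3 Fas-/-, week 6 Fas+/+ and week 6 Fas-/-, these cells held 3.83%, 18.4%, 43.9%, 66.2% and 80.7% of Fst UMIs and 2.94%, 16.3%, 41.3%, 69.5% and 80.1% of Inhba UMIs. For Grem1 the share was 62.5% of only 8 UMIs in the naive library and 84.1% to 97.2% in the other 4. In the naive library Fst lay in pericyte-like (38.3%) and vascular smooth muscle-like cells (29.5%), and in that labelled week 3 Fas+/+ its largest share was in adventitial fibroblast-like cells (30.9%). Over all libraries Fst was also found in inflammatory fibroblast-like cells (11.2% of its UMIs) and Inhba in vascular smooth muscle-like cells (8.45%). Profibrotic fibroblast-like cells had a median of 17450 UMIs a cell, the second highest of 21 clusters. Grem1, Fst and Inhba were themselves among the 10 genes that most distinguished this cluster, after Spp1, Thbs4 and Cthrc1, so their level there against other cells is a description.

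Bmp4 UMIs lay in alveolar lipofibroblast-like cells (29.7%, from 18.3% of cells) and in a cluster that fitted no marker list and is called cluster 0 (23.6%, from 13.5% of cells). Classes differed in UMIs per cell, so a share of cells is not the share of all UMIs. Relative to their own libraries, median UMIs were 1.61 in cluster 0 and 2.18 in profibrotic fibroblast-like cells. They were 1.21 and 0.54 in the clusters of alveolar lipofibroblast-like cells. Bmp5 was split between cluster 0 (25.1%), alveolar lipofibroblast-like cells (23.5%) and profibrotic fibroblast-like cells (18.2%, and 25.3% and 25.2% in the libraries labelled week 6, the largest share there), and its level was highest in ductal and airway myofibroblast-like cells at 334 CPM. Gdf6, with the fewest UMIs, was in cluster 0 (37.8%) and alveolar lipofibroblast-like cells (34.6%), and Gdf10 in cluster 0 (48.6%) and adventitial fibroblast-like cells (22%), with Gdf10 among the leading genes of cluster 0. Bambi was in cluster 0 (25.3%) and pericyte-like cells (15.8%), where its level was highest at 218 CPM. Smad6 was mainly in blood endothelial-like cells, which held 64.5% of its UMIs and 12.0% of cells, at 361 CPM. Id1 was in the same cells (40.7%, 1080 CPM) and in mesothelial-like cells (22.2%, 657 CPM). By highest class over the pooled cells, Grem1, Fst and Inhba were thus in profibrotic cells. Bmp4, Bmp5, Gdf6 and Gdf10 were highest in other mesenchymal cells, and Smad6 and Id1 in endothelial cells. At a coarser clustering (resolution 0.4), 8 of the 10 genes kept their highest class.

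**Figure D3:**
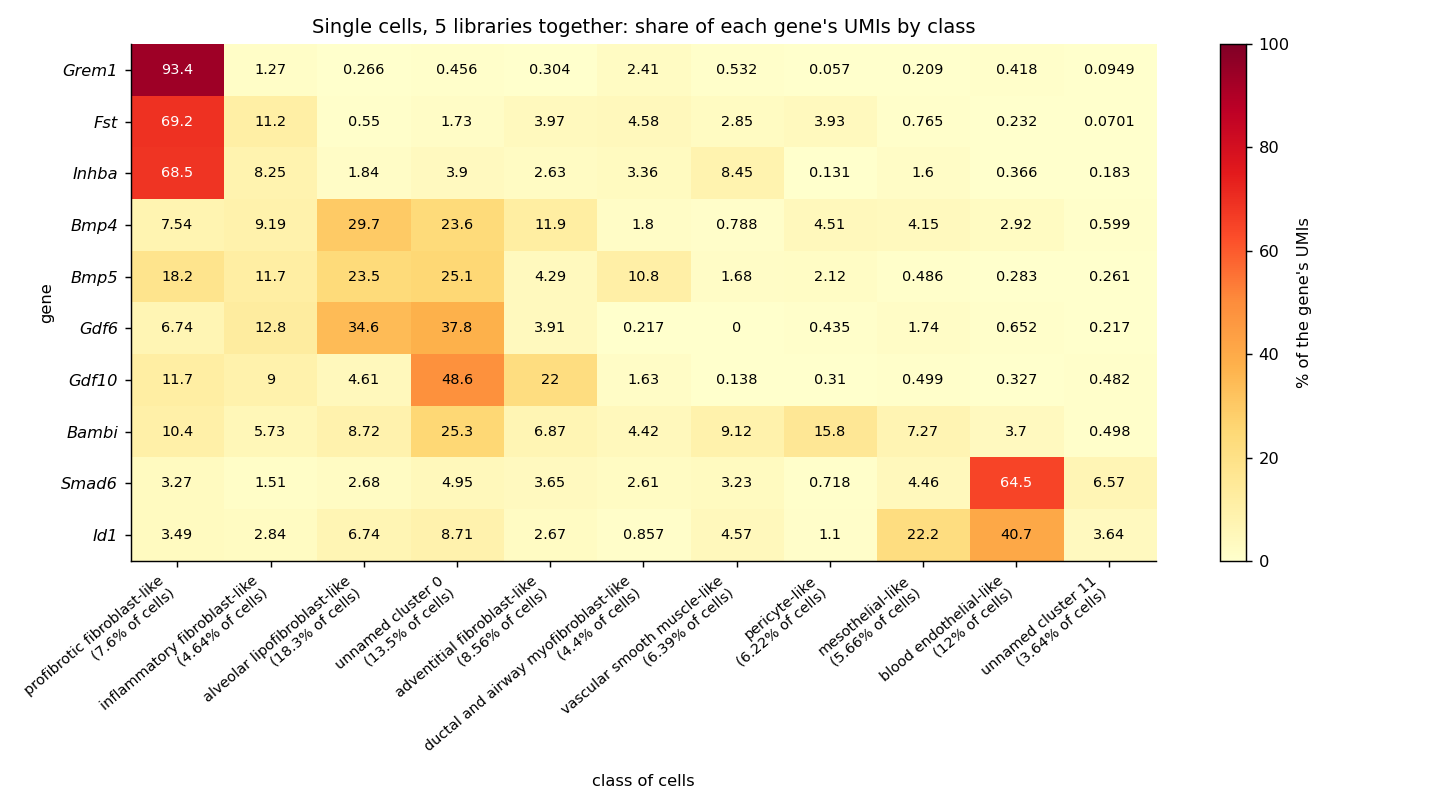
Share of each gene's UMIs (percent, color scale) by class of cells, over the 5 single-cell libraries together. The percents of cells beside the class names are not shares of all UMIs, since classes differed in UMIs per cell. Grem1 has 93.4% of its UMIs in profibrotic fibroblast-like cells and Smad6 64.5% in blood endothelial-like cells, while Bmp4, Bmp5, Gdf6 and Gdf10 are spread over several fibroblast classes, with 18.2% of Bmp5 in profibrotic fibroblast-like cells.

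Within profibrotic fibroblast-like cells, levels differed between libraries, and the naive library with 12 such cells is left out. Grem1 was 31.4 CPM (exact Poisson 95% interval 23.9 to 40.6) in the library labelled week 3 Fas+/+ and 128.5 CPM (112 to 146) in that labelled week 3 Fas-/-. In the libraries labelled week 6 it was 269 CPM (257 to 282) in Fas+/+ and 330.0 CPM (318 to 342) in Fas-/-. Grem1 was thus 4.09 times as high in Fas-/- as in Fas+/+ cells in the libraries labelled week 3. Fst was 85.1 and 199 CPM in the week 3 libraries and 789 and 822 CPM in the week 6 libraries of Fas+/+ and Fas-/- mice. Inhba was 40.1 and 91.9 CPM, then 387 and 281 CPM. In the libraries labelled week 3, Fst and Inhba were 2.34 and 2.29 times as high in Fas-/- cells. In those labelled week 6, none of the 3 differed 2-fold between genotypes.

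Bmp4, Gdf10 and Id1 went the other way in these cells. For Bmp5 only its share of UMIs is given above, and a share is not a level. Bmp4 was 120 and 109 CPM in profibrotic fibroblast-like cells of the libraries labelled week 3 and 59.4 and 40.6 CPM in those labelled week 6, in Fas+/+ and Fas-/- order. Gdf10 was 79.7 and 76.5 CPM, then 33.5 and 20.1 CPM, and Id1 89.4 and 95.9 CPM, then 40 and 31.8 CPM. In the 2 libraries where Grem1, Fst and Inhba were highest, Bmp4, Gdf10 and Id1 were lowest. In alveolar lipofibroblast-like cells Bmp4 was between 219 and 289 CPM in all 5 libraries. The number of profibrotic fibroblast-like cells was 127, 215, 240 and 322 in the 4 injured libraries, and the bulk level of Bmp4 sums over all classes. In bulk, the summed alveolar lipofibroblast markers were 12419 to 14421 CPM in naive libraries. At week 3 they were 4288 to 6965 CPM in Fas+/+ and 6841 to 9100 CPM in Fas-/- libraries. The part of cell numbers in the bulk difference of Bmp4 was not tested.

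After each cell was thinned to 3000 UMIs, 4.24%, 14.8%, 20.1% and 26.7% of profibrotic fibroblast-like cells had a Grem1 UMI in the libraries labelled week 3 Fas+/+, week 3 Fas-/-, week 6 Fas+/+ and week 6 Fas-/-. Unthinned shares were 8.66%, 22.8%, 43.8% and 37.9%. In blood endothelial-like cells, which should lack Grem1, the thinned shares were 1.2%, 0.971%, 0.589% and 2.48%. Median UMIs per cell over whole libraries ran from 5768 to 8896. The share in the library labelled week 3 Fas+/+ (95% Clopper-Pearson interval 1.39% to 9.61%) overlapped its endothelial share (0.145% to 4.26%). Over all libraries, 157 of 816 thinned profibrotic fibroblast-like cells had a Grem1 UMI and 346 an Fst UMI. Of the cells with Grem1, 54.1% also had Fst, against 39.6% of those without, and 8.28% had Bmp4, against 17.3%. Of the cells with Fst, 31.5% had Inhba, against 18.9%. Cells differ in library, so these shares describe the pooled cells.

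**Figure D4:**
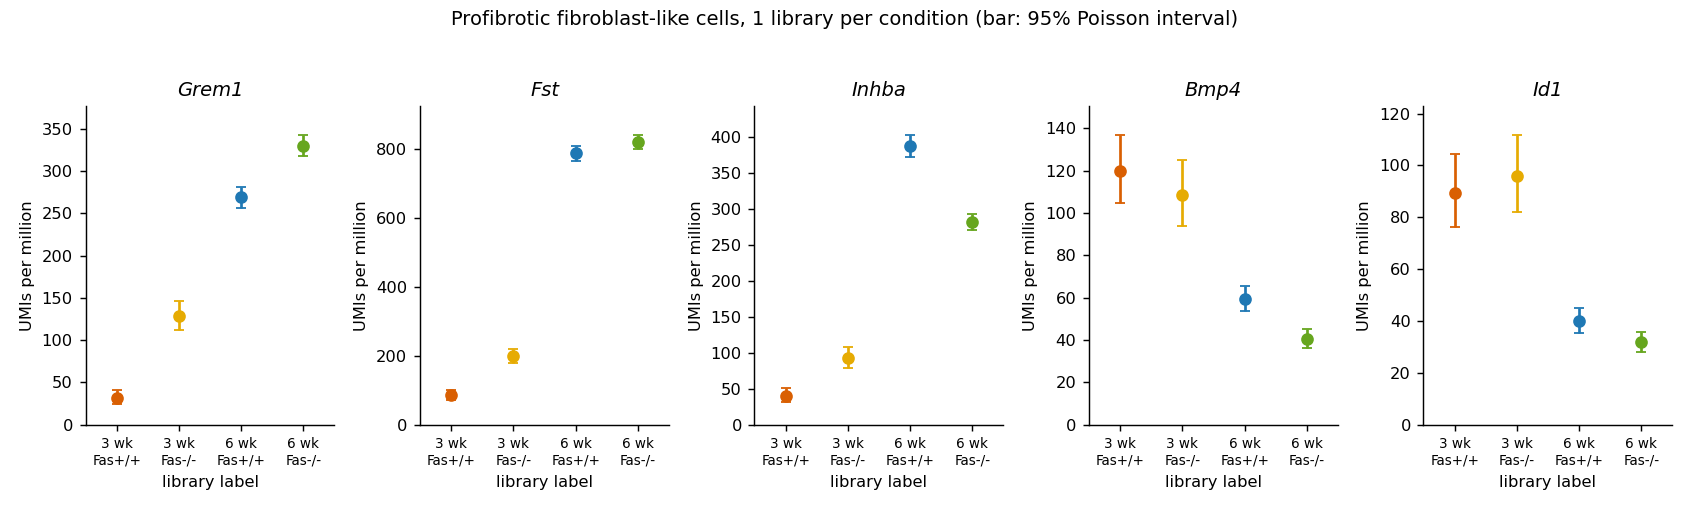
Levels in profibrotic fibroblast-like cells by library, in UMIs scaled to 1e6 UMIs of the class on axes that start at 0, with exact Poisson 95% intervals (counting error only, 1 library per condition). Grem1 goes from 31.4 to 330.0 CPM over the 4 libraries of injured mice, and Bmp4 from 120 to 40.6 CPM.

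Other classes differed between libraries in fewer genes. In ductal and airway myofibroblast-like cells Fst had 1 UMI in the naive library and was 22, 70, 340 and 256 CPM in the injured libraries in the same order, while Bambi was 119 CPM in the naive library and 53.8, 45.4, 52.2 and 29 CPM in the others. In inflammatory fibroblast-like cells, Inhba was 179 CPM in the library labelled week 6 Fas+/+ (113 cells) and 15.3 CPM in that labelled week 6 Fas-/- (179 cells), and Fst was 455 and 175 CPM. Gdf6 in alveolar lipofibroblast-like cells was 5.74 CPM in the library labelled week 3 Fas+/+ (30 UMIs) and 18 CPM in that labelled week 3 Fas-/- (63 UMIs), a ratio of 3.14 (95% interval 2.01 to 5.03). For Gdf6 in these cells the libraries labelled week 6 were at 7.88 and 9.58 CPM. Id1 in mesothelial-like cells was 352 CPM in the library labelled week 6 Fas+/+ and between 673 and 872 CPM in the other 4.

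In blood endothelial-like cells Smad6 was steady, at 332, 326, 370 and 361 CPM in the 4 injured libraries, and Id1 was 1244, 1284, 1043 and 993 CPM. The number of these cells was 188, 160, 902 and 188, and 9 in the naive library. A further 439 cells, cluster 11, had 8 of 8 blood endothelial markers above other cells but were left unnamed because their median UMI count was 0.264 of that of their own libraries and no marker was among their 10 leading genes. They numbered 1, 60, 28, 280 and 70 from the naive library on, and held 6.57% of Smad6 and 3.64% of Id1 UMIs. Over all cells of a library, Smad6 was 18.9 CPM in naive, 29.4, 26.1, 91.3 and 22.5 CPM in the others, highest in the library with the most endothelial cells. Id1 over all cells was 136, 207, 245, 294 and 128 CPM in the same order. Over all cells Grem1 was 1.42, 2.57, 14, 58.5 and 86.3 CPM, and the summed profibrotic markers, which set that class, were 8739, 8055, 11170, 19350 and 25990 CPM. Scrublet called 0.381% of cells doublets, too few for the caller to have worked, and doublets were kept.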

How the data were processed

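Bulk RNA-seq of 20 libraries and single-cell RNA-seq of 5 libraries were used, grouped by their labels. The bulk counts are raw counts of reads per Ensembl gene that the authors deposited, made by htseq-count from a stranded mRNA kit after skewer trimming and HISAT2 alignment (GRCm38), and whether counting used strand is not given in the sources used here. A deposited normalized table of the same counts was not used. For single cells the authors deposited Cell Ranger UMI counts (GRCm38).

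Bulk counts were tested in R 4.3.3 with edgeR 4.0.16 (filterByExpr with its minimum count of 10, TMM, quasi-likelihood fit to all 5 groups, Benjamini-Hochberg adjustment over 15773 genes, threshold 0.05). Log2 CPM used a prior count of 2. DESeq2 1.42.0, RLE normalization, no filter, a replicate block, marker covariates, left-out libraries and other fits were alternatives. The tests were checked on simulated data. Coordinates came from GENCODE vM21 on GRCm38, and promoter windows from RefSeq (GRCm38.p6).

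Cells were kept if they had 200 to 7500 genes and no more than 20% of UMIs from mitochondria. They were normalized with SCTransform (sctransform 0.4.2) and integrated over 3000 features and 20 components in Seurat 5.3.0, without the 10 genes, pathway genes and markers among the features. Clusters (resolution 0.8) were named where at least 3 markers, and their mean by 0.5 on the log2 scale, exceeded the other cells, unless another list had more markers among the 10 leading genes, or none of its own were there and the median UMI count was more than 3-fold below that of the cells' libraries. A difference between libraries was named at 2-fold with intervals that did not overlap, in classes of at least 20 cells. Shares were taken after thinning cells to 3000 UMIs.

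The genes, lists and the 4 endothelial-rich libraries were chosen with earlier results of these data known. All 10 genes are named, with up to 3 called genes per pathway list and comparison by smallest adjusted p, and the 3 nearest genes of each. Some genes that this rule names are not reported here.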

Additional observations from a re-analysis of the deposited data

Results flagged for a closer look

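In 13 of the 50 sets of 4 libraries (10 genes in 5 groups), 1 library lay so far from the other 3 that its gap exceeded Dixon's 95% critical value for 4 samples, where about 2.5 would by chance. Of these, 9 were in the endothelial-rich libraries. Smad6 stood apart in all 4 of them, at 309 CPM in week 3 Fas+/+ replicate 1 (others 65.4 to 97.4), 257 CPM in week 3 Fas-/- replicate 4 (28.5 to 47.5), 87.4 CPM in week 6 Fas+/+ replicate 2 (42.5 to 48.8) and 115 CPM in week 6 Fas-/- replicate 2 (27.2 to 37.3). Id1 stood apart in 3, at 204 CPM (others 61.2 to 76.9), 148 CPM (37.4 to 47.8) and 91.9 CPM (68.0 to 70). Bmp4 stood apart at 104 CPM in week 3 Fas+/+ replicate 1, above the other 3 libraries (81.4 to 83.7), and Bmp5 at 133.5 CPM in week 3 Fas-/- replicate 4, below them (192.5 to 201).

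The other 4 were in libraries not rich in endothelial markers. Grem1 was 16 CPM and Inhba 10.2 CPM in week 6 Fas+/+ replicate 4, against 3.03 to 4.79 and 6.89 to 7.02 CPM in the other 3 libraries. Grem1 was 45.1 CPM in week 6 Fas-/- replicate 1, against 19.4 to 22.9 CPM. Bambi was 24.7 CPM in week 6 Fas-/- replicate 3, where the others lay within 23.4 to 23.6 CPM.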

How the results depend on the processing

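Of 80 fold changes (10 genes in 8 pairwise comparisons), RLE normalization kept all directions and calls, and DESeq2 and the fit without a low-count filter kept all directions. Replicate numbers gave no clear sign of pairing: 14 of 40 same-number pairs had a correlation of deviations over 0.1 (range -0.46 to 0.40), and in 0 of 10 pairs of groups did all 4. Pairs with different numbers were not compared, so this check cannot decide whether libraries were paired. The replicate block left the number of the 10 genes called within 1.5 times in every comparison, turned Grem1 at week 3 between genotypes to 0.025, ended the call of Fst from week 3 to 6 in Fas-/- mice (adjusted p = 0.0521) and added a call of Gdf10 in Fas+/+ mice (adjusted p = 0.0324). The number called at week 6 in Fas+/+ mice against naive was 2 by DESeq2, 3 with the compared groups alone and 3 without the 4 endothelial-rich libraries. Of all genes, 7.53%, 10.7% and 9.62% were called in these fits. It was 2 with the endothelial and 0 with the epithelial covariate, where 5.04% and 0.0761% of all genes were called. At week 6 in Fas-/- mice it was 7 without the 4 libraries and 5 with the compared groups alone, against 11.7% and 8.86% of all genes. Between genotypes it was 4 at week 3 and 1 at week 6 without the 4 libraries, against 8.13% and 0.738% of all genes. It was 1 at week 6 by DESeq2 (0.951% of all genes) and 1 for the interaction without the 4 libraries (1.58%). At week 3 in Fas+/+ mice it was 5 with the epithelial covariate, against 12.0% of all genes. From week 3 to 6 in Fas-/- mice it was 8 without the 4 libraries, 3 with the epithelial covariate and 2 to 4 with 1 library left out. Of all genes, 16.7%, 5.27% and 3.54% to 9.07% were called there. With a log2 change of at least 1 required, it was 4 at week 3 in Fas-/- mice, against 11.7% of all genes. From week 3 to 6 it was then 3 in Fas+/+ and 1 in Fas-/- mice, against 6.45% and 2.37%. Of the 57 other pathway genes (alternatives chosen after seeing the data), 10 and 13 were called at week 6 in Fas+/+ and Fas-/- mice, 13 between genotypes at week 3 and 1 for the interaction without the 4 libraries. Of all genes, 9.62%, 11.7%, 8.13% and 1.58% were called in these comparisons.

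Directions turned mostly under the marker covariates. Epithelial markers separated naive from all injured libraries (mean log2 CPM at most 0.58 against at least 1.899). Endothelial markers of naive mice overlapped only those of week 6 Fas-/- mice. Between weeks, endothelial markers did not overlap in Fas+/+ mice, nor epithelial ones in Fas-/- mice. Without overlap the adjusted values are extrapolations, and neither they nor the counts above can separate markers from injury or time. Values follow as endothelial then epithelial. Against naive, in Fas+/+ mice at week 3, Bmp5 became 0.21 and 0.16, Smad6 -1.03 and -1.05 and Id1 -0.44 and -0.24. In Fas-/- mice at week 3, Bmp5 became 0.33 and 0.48, Smad6 -1.06 and -1.53 and Id1 -0.56 and -0.76. In Fas+/+ mice at week 6, Fst became 0.52 and 1.02, Bmp5 0.23 and 0.42, Gdf10 0.0023 and 0.093 and Smad6 -0.80 and -1.82, and Id1 -0.44 with the epithelial one alone. At week 6 in Fas-/- mice Smad6 became -0.35 and -1.30. Between genotypes, Bmp4 became -0.053 and Gdf10 -0.013 at week 3 (endothelial), Inhba -0.011 (epithelial) and Smad6 0.45 and 0.53 at week 6. Over weeks 3 to 6, Smad6 became 0.23 and Id1 0.48 in Fas+/+ mice (endothelial), and Smad6 0.71 and 0.24 in Fas-/- mice. Without the 4 libraries Bmp5 became 0.060 at week 3 in Fas-/- and 0.00068 at week 6 in Fas+/+ mice, Smad6 -0.20 at week 6 in Fas-/- mice, and Gdf10 -0.16 between genotypes at week 3. The cause was not tested. With 1 library left out, directions turned for Bmp5 (-0.12 to 0.061 at week 3 in Fas-/-, -0.10 to 0.00093 at week 6 in Fas+/+ mice) and Smad6 (-0.20 to 0.75 at week 6 in Fas-/- mice) against naive. Between genotypes at week 3 they turned for Grem1 (-0.53 to 0.19), Fst (-0.59 to 0.086), Bmp4 (-0.036 to 0.10), Gdf10 (-0.13 to 0.23) and Smad6 (-1.85 to 0.25), and at week 6 for Smad6 (-0.81 to 0.23) and Id1 (-0.11 to 0.37). Over weeks 3 to 6 they turned for Id1 in Fas+/+ (-0.66 to 0.093) and Smad6 in Fas-/- mice (-1.51 to 0.52). Single-cell levels in the highest class moved beyond counting error for 3 genes at resolution 0.4 and 7 at 1.2. Low counts limit Grem1 in naive libraries (6 to 41 reads).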
